A study of Mus musculus with 12 samples.

Results

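Wnt signalling was followed through 26 genes in mouse kidney cortex 7 days after unilateral ureteral obstruction (UUO), a surgical model in which a tied ureter leads to tubular injury and interstitial fibrosis. The genes are the Wnt ligands, the Frizzled receptors and the secreted antagonists of the Sfrp and Dkk families. Symbols were taken by family name, and 37 of the 23183 gene symbols in the files matched. A matching gene was described when it reached 0.3 FPKM (fragments counted relative to transcript length and to the size of the library) in at least 3 of the 12 libraries, which left 12 of 19 ligands, 8 of 10 receptors and 6 of 8 antagonists. The same level was reached by 14992 of all symbols. The level itself did not use genotype or surgery, but 4 described genes reached it in UUO libraries only, and 7 reached it in fewer than 3 of the contralateral libraries, so their direction was partly set by the choice.

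The 4 groups held 3 libraries each. WT CL and WT UUO were the contralateral (CL, the unobstructed kidney on the other side) and obstructed kidneys of C57BL/6 wild-type mice, and Acot12-/- CL and Acot12-/- UUO were the same kidneys of mice lacking Acot12, an acyl-CoA thioesterase that releases acetate from acetyl-CoA. According to the methods, operated mice were 6- to 7-week-old C57BL/6N males, and the Acot12-/- animals descended from a germline mutant allele made with an RNA-guided nuclease. No sham-operated kidney was in the comparison, and the CL kidney of an obstructed animal works for both. Nothing in the labels says whether libraries of a group came from separate mice, so p-values measure the spread between these libraries.

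Wnt proteins are secreted lipid-modified ligands that bind Frizzled receptors together with the co-receptors Lrp5 and Lrp6. In the canonical branch this stops the destruction of beta-catenin, which then turns on target genes with TCF/LEF factors, and other branches act through Ror2, Ryk or planar polarity proteins. Sfrp proteins carry a Frizzled-like domain and bind Wnts outside the cell, and Dkk proteins, with Dkk3 as an atypical member, act at Lrp co-receptors. In the kidney, Wnt9b and Wnt4 drive nephron formation in the embryo, Wnt7b is made by the collecting duct, and the pathway is known to be active again after tubular injury.

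Acot12 was read first, since it checks the labels. It stood at 73.8, 52.7 and 78.1 FPKM in WT CL, at 9.98, 16.7 and 21.2 in WT UUO, at 9.15, 9.01 and 6.80 in Acot12-/- CL and at 3.28, 1.80 and 3.86 in Acot12-/- UUO, so it was lower in the Acot12-/- library in every pairing of like kidneys, although its RNA was not absent. Total FPKM ran from 799670 to 977981 in CL libraries and from 491078 to 686425 in UUO libraries. The steps between low values put a single fragment on a 1-kb transcript at 0.0683 to 0.0886 FPKM in CL against 0.0491 to 0.0607 in UUO, which corresponds to 11300000 to 14600000 and 16500000 to 20400000 fragments, so low values in CL rest on fewer fragments. Acot12-/- CL replicate 2 stood apart from the other libraries of its group on the second principal component (-52.8 against 22.5 and 33.4), and results that turn on it are given without it. Cell type markers differed between groups. Summed over 8 proximal tubule markers, the level was 2863 to 3438 FPKM in WT CL against 736 to 1237 in WT UUO, and 4000 to 5502 in Acot12-/- CL against 586 to 1542 in Acot12-/- UUO. Injured tubule markers (5 genes) ran from 5.62 to 52.3 in CL and from 1097 to 1350 in UUO libraries, and the 9 fibroblast and myofibroblast markers from 52.7 to 195 and from 366 to 528. In whole cortex, a change in the number of cells of a type and a change in RNA per cell cannot be told apart, and the part of cell composition in the results that follow was not tested.

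Promoter sequence was in the RefSeq table (GRCm38.p6, from 250 bases before to 50 after each start) for 16 of the 26 described genes, with 19 starts. Stretches before the start are shown for 3 ligands that were higher in UUO kidneys of both genotypes, and for Dkk2, an abundant antagonist whose UUO and CL libraries overlapped. Each is written 5′ to 3′ on the strand of the gene, and capitals mark CG pairs. The Wnt4 stretch (plus strand, chr4:137277385-137277488) ends where GENCODE begins the gene and holds 16 CG in 104 bases. The Wnt9a stretch (plus strand, chr11:59306680-59306929) holds 48 in 250 bases, the Wnt7a stretch (minus strand, chr6:91411354-91411603) 34 and the Dkk2 stretch (plus strand, chr3:132085042-132085291) 7.
Wnt4: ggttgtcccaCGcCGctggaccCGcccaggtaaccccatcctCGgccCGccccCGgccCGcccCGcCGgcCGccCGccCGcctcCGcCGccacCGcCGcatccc
Wnt9a: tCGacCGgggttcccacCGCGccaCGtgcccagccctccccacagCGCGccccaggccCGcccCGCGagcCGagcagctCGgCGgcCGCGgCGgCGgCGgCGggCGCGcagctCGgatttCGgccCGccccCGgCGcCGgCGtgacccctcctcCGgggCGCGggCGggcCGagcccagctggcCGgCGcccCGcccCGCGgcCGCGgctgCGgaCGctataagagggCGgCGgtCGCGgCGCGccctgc
Wnt7a: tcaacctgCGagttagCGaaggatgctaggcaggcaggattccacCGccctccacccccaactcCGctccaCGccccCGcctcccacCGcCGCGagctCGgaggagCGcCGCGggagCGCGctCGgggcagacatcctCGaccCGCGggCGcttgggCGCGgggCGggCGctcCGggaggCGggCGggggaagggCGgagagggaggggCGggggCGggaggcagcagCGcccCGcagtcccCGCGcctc
Dkk2: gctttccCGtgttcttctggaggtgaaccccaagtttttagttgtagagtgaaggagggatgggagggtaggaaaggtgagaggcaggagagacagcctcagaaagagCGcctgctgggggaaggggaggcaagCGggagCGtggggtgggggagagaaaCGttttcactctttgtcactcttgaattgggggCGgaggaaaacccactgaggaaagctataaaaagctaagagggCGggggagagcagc

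The stretches shown for the 3 ligands held more CG for their length than that of Dkk2. This does not extend to the whole family, since the whole Dkk2 window held 11 CG, that of Wnt16 held 10 and those of 2 Wnt5b starts held 4 and 7. The Wnt5b start at the beginning of the gene held 47. Among genes called in neither UUO comparison, a Wnt11 start held 45, Fzd5 38 and Wnt9b 29. The window of Wnt3a, listed at 0 in all 12 libraries, held 45. Sfrp5, called higher in UUO of both genotypes, held 15. Whether CG content goes with the direction of a gene was not tested. Over the whole windows, the median was 27 CG and 66.7% G or C for the 19 starts, against 7 CG and 52.7% over all 32851 promoters of the table. A TCF/LEF motif, searched on both strands as CTTTG followed by 2 bases that were each A or T, was in 3 of 19 windows and in 16.9% of all promoters. An AP-1 motif (TGACTCA or TGAGTCA, which are each other on the opposite strand) was in 1 of 19 and in 5.20% of all. TCF/LEF matches were in Fzd7, in Wnt11, which was not called, and in a Wnt5b start other than that of its AP-1 match. Whether a match goes with the direction of a gene was not tested. The TCF/LEF match of Fzd7 (plus strand, chr1:59481992-59482048) and the AP-1 match of Wnt5b (minus strand, chr6:119544507-119544563) are shown with 25 bases on each side and the motif in capitals, since Fzd7 rose in WT UUO and Wnt5b fell in Acot12-/- UUO kidneys.
Fzd7: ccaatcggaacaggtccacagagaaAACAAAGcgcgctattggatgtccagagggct
Wnt5b: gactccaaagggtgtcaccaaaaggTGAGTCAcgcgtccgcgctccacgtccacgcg

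A match is a string of letters, not a binding site, and neither share stood far from that of all promoters.

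Levels per transcript length differed widely within each family. Among ligands, Wnt5a, best known for signalling that does not use beta-catenin, was the most abundant in CL kidneys and made up 31.1% ± 6.11 (SD, n = 3) of the summed ligand FPKM in WT CL against 38.0% ± 10.7 in Acot12-/- CL. Among receptors, Fzd1 and Fzd4 led with 28.6% ± 3.68 and 25.9% ± 3.16 of the receptor sum in WT CL. Sfrp1 and Dkk2 together made up 84.0% to 86.7% of the antagonist sum in WT CL, and this share was 71.0% to 71.9% in WT UUO. In Acot12-/- kidneys it was 83.5% to 90.7% in CL against 67.2% to 72.8% in UUO. Antagonists under other symbols are in neither this sum nor the antagonist to ligand ratio below. Among those left out are Sostdc1 and, named after its values were seen, Frzb (14.2, 10.7 and 12.0 FPKM in WT CL).

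**Figure D1:**
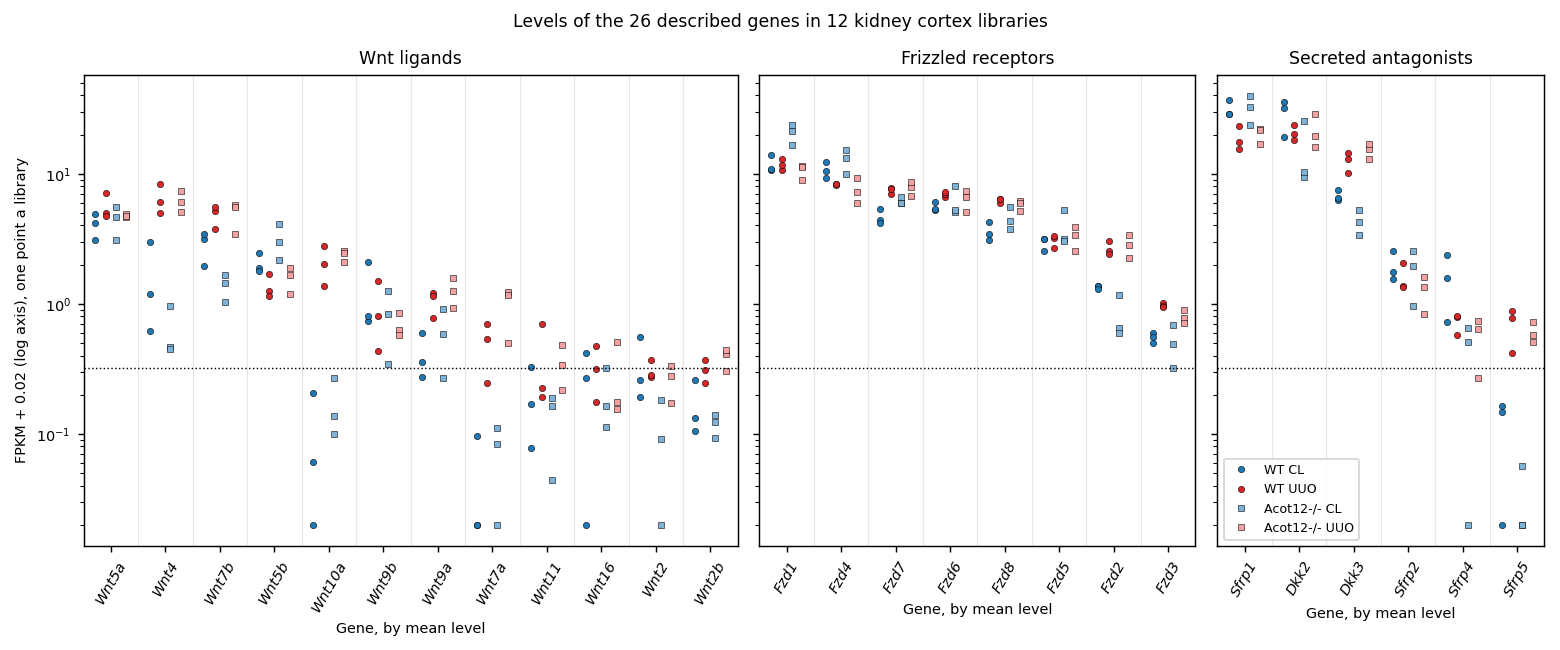
FPKM of each described gene in each of the 12 libraries, plotted as FPKM + 0.02 on a log axis so that values listed at 0 stay visible at the bottom. Genes are ordered by mean level within ligands, receptors and antagonists, and the dotted line marks the level of 0.3 FPKM. Wnt10a, Wnt7a and Sfrp5 lie below the line in every CL library and mostly above it in UUO libraries.

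The balance between the families shifted with UUO in both genotypes. The sum over all 19 ligands was 12.8, 16.1 and 10.3 FPKM in WT CL against 23.4, 18.8 and 30.2 in WT UUO, and it was 12.1, 11.4 and 11.3 in Acot12-/- CL against 20.6, 25.5 and 25.7 in Acot12-/- UUO. The groups did not overlap in either genotype. The receptor sum ran from 39.2 to 42.5 in WT CL against 46.3 to 49.1 in WT UUO, and from 46.0 to 61.8 in Acot12-/- CL against 38.3 to 50.2 in Acot12-/- UUO. The antagonist sum overlapped in both genotypes. It ran from 57.0 to 79.1 in WT CL against 47.4 to 60.5 in WT UUO. For Acot12-/- it ran from 40.8 to 73.4 in CL against 54.1 to 69.3 in UUO. Its mean was lower in WT UUO (70.5 to 55.1) and higher in Acot12-/- UUO (53.5 to 59.2). Antagonist FPKM exceeded ligand FPKM 5.46-fold ± 0.755 (SD, n = 3) in WT CL against 2.33-fold ± 0.283 in WT UUO, and 4.64-fold ± 1.59 in Acot12-/- CL against 2.49-fold ± 0.315 in Acot12-/- UUO. This ratio is taken within a library and so does not depend on how libraries were scaled, and it was below 2.71 in every UUO library and above 3.60 in every CL library. Acot12-/- CL replicate 2, at 6.46, was the highest of its group.

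UUO against CL asks which of these genes move with obstruction, and it was tested in each genotype with limma on log2(FPKM + 1) across 14963 genes, calling a gene at a Benjamini-Hochberg adjusted p under 0.05. In WT kidneys 12 of the 26 genes were called, 11 higher and 1 lower, where 45.4% of all genes tested were called (23.7% higher and 21.7% lower). In Acot12-/- kidneys 14 were called, 10 higher and 4 lower, where 52.3% of all genes were called (27.7% higher and 24.6% lower). The share of genes called was near the background in both. Wnt10a, Wnt7a, Wnt2b and Sfrp5 reached 0.3 FPKM in UUO libraries only, so their direction was set by that level. Among the other 22 genes, 8 were called higher and 1 lower in WT, and 6 higher and 4 lower in Acot12-/- kidneys. Of the 26, 9 were higher in both genotypes, namely Wnt4, Wnt7b, Wnt10a, Wnt9a, Wnt7a, Fzd2, Fzd3, Dkk3 and Sfrp5, and 1, Sfrp1, was lower in both. The UUO and CL libraries did not overlap for 15 of 26 genes in WT, against 68.5% of all genes, and for 16 of 26 in Acot12-/- mice, against 54.9%. Same-numbered CL and UUO kidneys, which deviated together, moved the same way in all 6 pairs for 12 higher and 3 lower genes (Wnt5b, Fzd4 and Sfrp1). The 12 include Wnt10a, Wnt7a, Wnt2b and Sfrp5. The share of all genes that moved the same way in all pairs was not computed, so this count has no background.

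**Figure D2:**
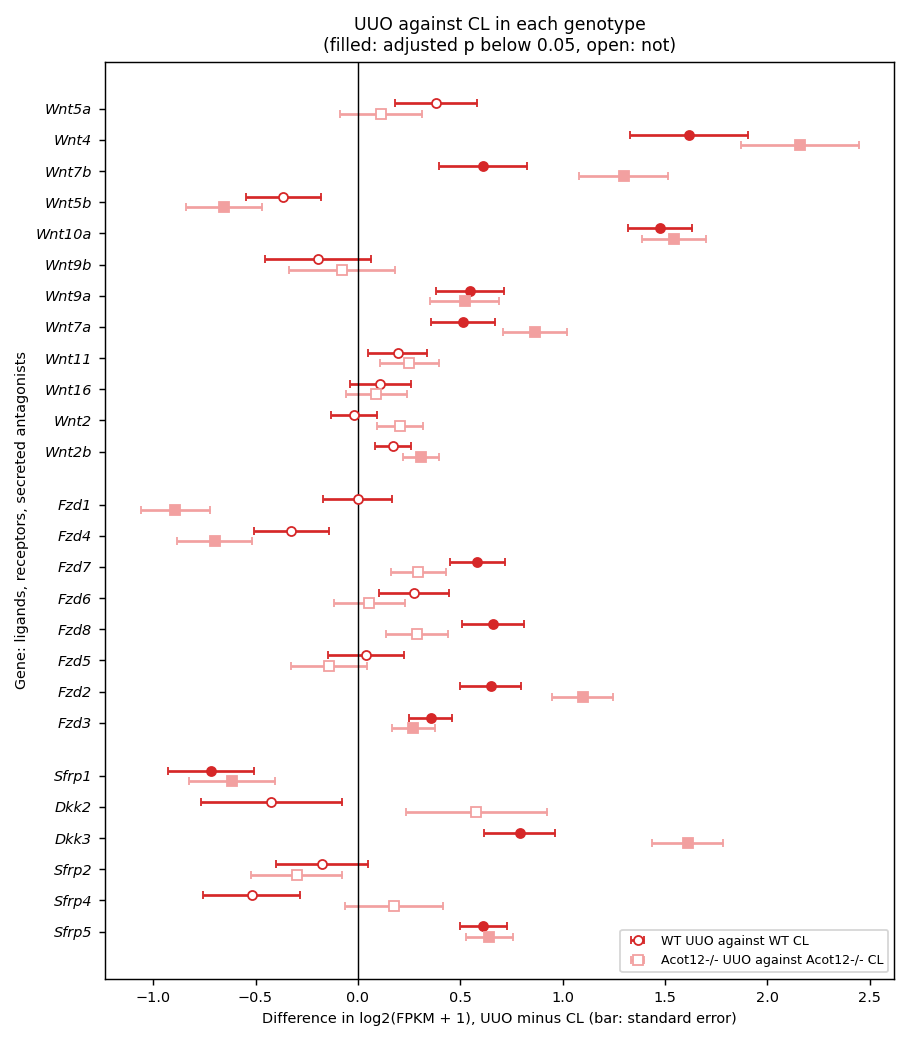
Difference in log2(FPKM + 1) between UUO and CL kidneys for each described gene in WT (circles) and Acot12-/- (squares) mice, with bars of 1 standard error and filled symbols where the adjusted p was under 0.05. Wnt4, Wnt10a, Wnt7b, Fzd2 and Dkk3 lie to the right in both genotypes, Sfrp1 lies to the left in both, and Fzd1 lies at 0 in WT and to the left in Acot12-/- kidneys.

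Of the 12 ligands, 5 were higher and none lower in WT UUO, and 6 were higher and 1 lower in Acot12-/- UUO. That is 41.7% and 58.3% called, near the 45.4% and 52.3% of all genes. Over all genes, 23.7% were higher in WT UUO, and 27.7% were higher and 24.6% lower in Acot12-/- UUO. Of these ligands, Wnt10a, Wnt7a and Wnt2b reached the level in UUO libraries only, and among the other 9 ligands 3 were higher in WT, and 3 higher and 1 lower in Acot12-/- UUO. Wnt4, which in the embryo turns mesenchyme into nephron epithelium, read 1.16, 2.94 and 0.600 FPKM in WT CL against 6.02, 4.99 and 8.35 in WT UUO. In Acot12-/- kidneys it read 0.446, 0.934 and 0.427 in CL against 5.07, 6.04 and 7.29 in UUO. No CL library reached any UUO library. WT CL replicate 2, the highest of the CL libraries, also had the highest sum of 5 urothelial markers among them (36.6 FPKM, against 0.998 to 13.1 in the others). Its injured tubule sum was the highest of the CL libraries as well (52.3 FPKM, against 5.62 to 42.0). WT UUO replicate 3, the highest in Wnt4, had the lowest urothelial sum among UUO libraries (9.26 FPKM, against 64.8 to 106). The part of either cell type in the Wnt4 values was not tested. The mean was 4.11-fold higher in WT UUO (log2 difference 1.62, SE 0.29, limma adjusted p = 0.000810) and 10.2-fold higher in Acot12-/- UUO (2.16, SE 0.29, adjusted p = 7.45e-05). Without WT CL replicate 2 the WT ratio of means was 7.31. As a share of the ligand sum, Wnt4 went from 11.0% ± 6.45 (SD, n = 3) to 26.6% ± 0.950 in WT and from 5.23% ± 2.59 to 25.6% ± 2.46 in Acot12-/- kidneys.

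Wnt10a, a canonical ligand of skin and tooth buds, was close to 0 in CL kidneys. It was listed at 0, 0.187 and 0.041 FPKM in WT CL and at 0.116, 0.079 and 0.249 in Acot12-/- CL. In UUO it read 2.02, 1.34 and 2.76 in WT and 2.06, 2.53 and 2.44 in Acot12-/- kidneys, so every UUO library lay above every CL library. The log2 difference was 1.48 (SE 0.16, limma adjusted p = 3.19e-05) in WT and 1.54 (SE 0.16, adjusted p = 1.19e-05) in Acot12-/-. Wnt10a was described only because of its UUO libraries, so these p-values and the lack of overlap are no separate evidence of its direction. Its neighbour Wnt6, 6.2 kb away on the same strand of chromosome 1, stayed below the level.

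Wnt7b and Wnt7a are close relatives, and both were higher in UUO. Wnt7b, a ligand of the collecting duct, read 3.13, 3.43 and 1.94 FPKM in WT CL against 5.19, 3.72 and 5.58 in WT UUO, and 1.02, 1.42 and 1.66 in Acot12-/- CL against 3.39, 5.75 and 5.52 in Acot12-/- UUO. The UUO libraries lay above the CL libraries of the same genotype, and the Acot12-/- CL libraries lay below the WT CL libraries. The difference was 0.61 (SE 0.21, limma adjusted p = 0.0357) in WT and 1.30 (SE 0.21, adjusted p = 0.000351) in Acot12-/-. The WT call was lost with no filter on low values (adjusted p = 0.0560) and without any 1 of WT CL replicates 1 and 3 or WT UUO replicates 1 and 3 (0.43 to 0.68, adjusted p from 0.0547 to 0.150). A gene on the opposite strand, AU022754, overlaps exons of Wnt7b, and whether counting used strand is not stated. Collecting duct markers (6 genes) summed to 357 to 511 FPKM in WT CL against 193 to 277 in WT UUO, and to 268 to 494 in Acot12-/- CL against 156 to 398 in Acot12-/- UUO, which overlapped. Of these markers, 4 were lower and 2 not called in WT, and 1 was higher, 1 lower and 4 not called in Acot12-/- UUO, and their part in the Wnt7b values was not tested. Wnt7a was listed at 0 in 3 CL libraries and at 0.063 to 0.091 in the other 3. It read 0.518, 0.224 and 0.684 in WT UUO and 0.478, 1.21 and 1.15 in Acot12-/- UUO. The difference was 0.51 (SE 0.16, adjusted p = 0.0179) in WT, a call lost without WT CL replicate 3 or WT UUO replicate 1 or 3 (0.41 to 0.50, adjusted p from 0.0521 to 0.0727), and 0.86 (SE 0.16, adjusted p = 0.000614) in Acot12-/-. Wnt7a also reached the level in UUO libraries only, so its p-values do not test its direction.

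Wnt9a, a ligand of developing joints, read 0.338, 0.575 and 0.256 FPKM in WT CL against 1.20, 0.762 and 1.13 in WT UUO, and 0.562, 0.248 and 0.895 in Acot12-/- CL against 0.912, 1.56 and 1.23 in Acot12-/- UUO. The groups did not overlap, although the nearest Acot12-/- libraries were close. The difference was 0.55 (SE 0.17, limma adjusted p = 0.0191) in WT and 0.52 (SE 0.17, adjusted p = 0.0208) in Acot12-/-. The WT call was lost without WT CL replicate 1 or 3 or WT UUO replicate 1 or 3 (0.48 to 0.52, adjusted p from 0.0584 to 0.0716). The Acot12-/- call was lost without Acot12-/- CL replicate 2 or Acot12-/- UUO replicate 2 or 3 (0.37 to 0.52, adjusted p from 0.0507 to 0.0871), and in a fit of the 2 groups alone (adjusted p = 0.0536).

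Wnt2b was called in Acot12-/- kidneys, with 0.120, 0.104 and 0.073 FPKM in CL against 0.285, 0.388 and 0.418 in UUO (0.31, SE 0.09, limma adjusted p = 0.0106). Like Wnt10a, Wnt2b reached the level in UUO libraries only, which set its direction. In WT kidneys the difference was 0.17 (SE 0.09, adjusted p = 0.131), which was called with no filter on low values (adjusted p = 0.0420) and with equal totals (0.32, adjusted p = 0.0135), and the test of the difference between genotypes gave 0.14 (SE 0.12, adjusted p = 0.810). Wnt5b, a relative of Wnt5a, was lower in Acot12-/- UUO at 1.87, 1.64 and 1.16 FPKM against 4.09, 2.15 and 2.97 in CL (fell by 0.65 on the log2 scale, SE 0.18, adjusted p = 0.0102). In WT it read 1.86, 1.76 and 2.42 in CL against 1.22, 1.13 and 1.68 in UUO, where the groups did not overlap but the test did not pass (-0.36, SE 0.18, adjusted p = 0.124). It passed in a fit of the 2 groups alone (adjusted p = 0.0461), and with equal totals the difference was 0.09 (adjusted p = 0.733). With library totals set equal, the Acot12-/- call of Wnt5b was lost (-0.27, adjusted p = 0.275).

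Wnt5a was not called in either genotype. It read 4.84, 4.16 and 3.08 FPKM in WT CL against 4.93, 4.70 and 7.05 in WT UUO, and 4.60, 5.53 and 3.09 in Acot12-/- CL against 4.84, 4.66 and 4.71 in Acot12-/- UUO (0.38, SE 0.20, limma adjusted p = 0.139, and 0.11, SE 0.20, adjusted p = 0.664). With equal totals it was called higher in both (0.99, adjusted p = 0.00124, and 0.56, adjusted p = 0.0375). Wnt9b, the ligand that starts nephron formation, ranged from 0.714 to 2.07 in WT CL against 0.416 to 1.47 in WT UUO, and 0.327 to 1.23 in Acot12-/- CL against 0.554 to 0.832 in Acot12-/- UUO, and its groups overlapped in every comparison. Wnt11, Wnt16 and Wnt2 stayed at or under 0.684 FPKM in every library and were not called.

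**Figure D3:**
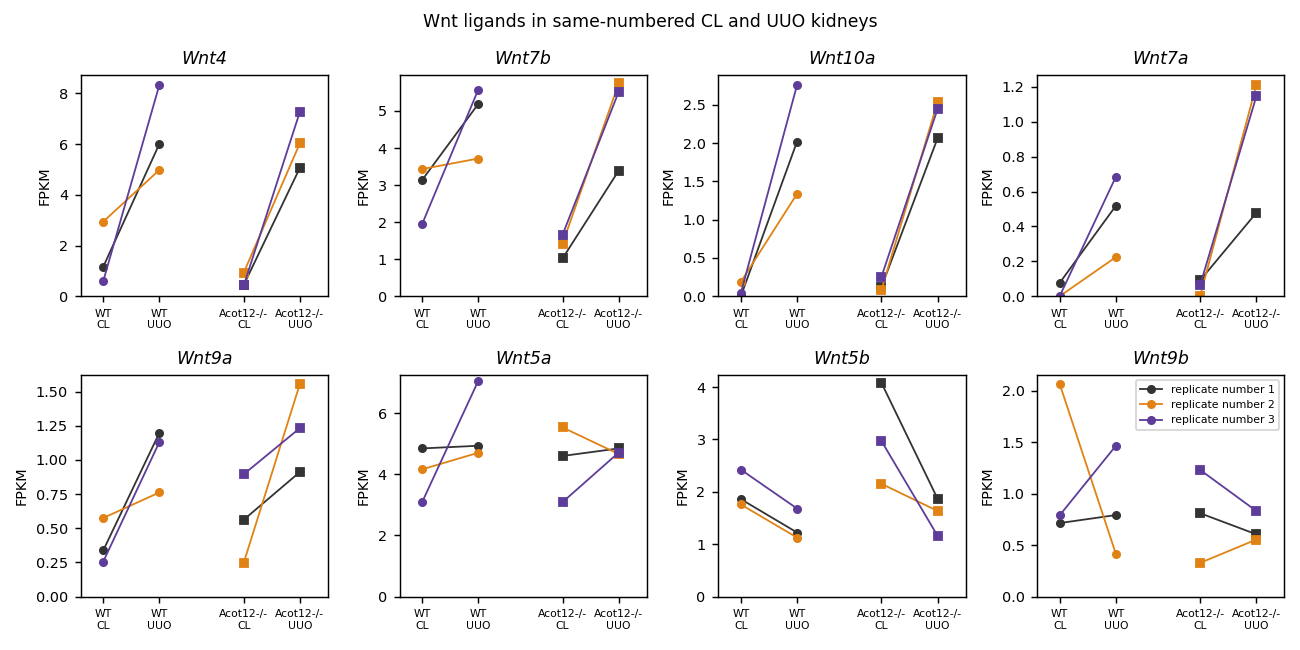
FPKM of 8 Wnt ligands in the CL and UUO kidneys of each genotype, with lines joining libraries of the same replicate number. Wnt4, Wnt7b, Wnt10a, Wnt7a and Wnt9a rise along all 6 lines and Wnt5b falls along all 6, and the lines of Wnt5a and Wnt9b go both ways.

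Of the 8 receptors, 4 were higher in WT UUO and 2 were higher and 2 lower in Acot12-/- UUO, which is 4 of 8 (50%) called in each genotype against 45.4% and 52.3% of all genes. Fzd2, a receptor that also takes Wnt5a, read 1.34, 1.35 and 1.27 FPKM in WT CL against 2.52, 2.40 and 3.04 in WT UUO, and 0.629, 0.575 and 1.14 in Acot12-/- CL against 2.25, 2.83 and 3.33 in Acot12-/- UUO. No libraries of CL and UUO overlapped, and the mean was 2.01-fold higher in WT (0.65, SE 0.15, limma adjusted p = 0.00396) and 3.59-fold higher in Acot12-/- kidneys (1.10, SE 0.15, adjusted p = 8.16e-05). Fzd3, a receptor of planar polarity in neurons, read 0.579, 0.476 and 0.531 in WT CL against 0.991, 0.948 and 0.928 in WT UUO (0.36, SE 0.10, adjusted p = 0.0162), a call lost without WT CL replicate 2 or WT UUO replicate 1 (adjusted p from 0.0514 to 0.0529). Its difference in Acot12-/- mice was 0.27 (SE 0.10, adjusted p = 0.0484), and this call was lost on leaving out any 1 of 11 of the 12 libraries, all but Acot12-/- CL replicate 2 (0.18 to 0.30, adjusted p from 0.0587 to 0.169). It was also lost with a pseudocount of 0.1, without a variance trend and in a fit of the 2 groups alone (adjusted p from 0.0532 to 0.139).

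Fzd7 and Fzd8 were called in WT only. Fzd7, a receptor of intestinal stem cells, read 4.40, 5.32 and 4.17 FPKM in WT CL against 7.70, 6.99 and 7.55 in WT UUO, 1.60-fold higher (0.58, SE 0.13, limma adjusted p = 0.00408). The Acot12-/- libraries read 5.89, 6.56 and 5.91 in CL against 7.89, 8.66 and 6.73 in UUO, which did not overlap but were not called (0.29, SE 0.13, adjusted p = 0.0846). Without Acot12-/- CL replicate 2 it was called (0.34, adjusted p = 0.0374), as it was with equal totals (0.77, adjusted p = 0.00301). Fzd8 read 3.09, 3.45 and 4.26 in WT CL against 6.38, 5.94 and 6.37 in WT UUO (0.66, SE 0.15, adjusted p = 0.00385). In Acot12-/- it read 5.53, 4.32 and 3.77 against 6.14, 5.89 and 5.15 (0.29, SE 0.15, adjusted p = 0.125), and without Acot12-/- CL replicate 1 or with equal totals it was called (0.41, adjusted p = 0.0394, and 0.75, adjusted p = 0.00611). The tests of the difference between genotypes gave -0.29 (SE 0.19, adjusted p = 0.694) for Fzd7 and -0.37 (SE 0.21, adjusted p = 0.623) for Fzd8, so the genotypes were not shown to differ.

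Fzd4, the receptor for norrin in vessels, and Fzd1 were lower in Acot12-/- UUO. Fzd4 read 13.2, 15.2 and 9.99 FPKM in Acot12-/- CL against 7.25, 9.33 and 5.90 in Acot12-/- UUO (fell by 0.70, SE 0.18, limma adjusted p = 0.00711). In WT it read 12.2, 9.18 and 10.5 in CL against 8.25, 8.17 and 8.32 in UUO, not overlapping and not called (-0.33, SE 0.18, adjusted p = 0.168). It was called lower in a fit of the 2 groups alone (adjusted p = 0.0349), and with equal totals the difference turned to 0.34 (adjusted p = 0.242). Fzd1 read 23.6, 21.3 and 16.6 in Acot12-/- CL against 11.5, 11.2 and 8.88 in Acot12-/- UUO (fell by 0.89, SE 0.17, adjusted p = 0.000913). In WT it read 10.6, 10.8 and 13.9 in CL against 10.6, 11.5 and 12.9 in UUO, and these overlapped (0.00, SE 0.17, adjusted p = 0.997). With equal totals the Acot12-/- calls were lost (-0.20, adjusted p = 0.499 for Fzd4 and -0.38, adjusted p = 0.164 for Fzd1). Fzd5 and Fzd6 ranged from 2.55 to 5.21 and from 5.07 to 7.96 over all libraries and were not called in any comparison, although with equal totals both were called higher in WT UUO (0.60, adjusted p = 0.0336 and 0.91, adjusted p = 0.00317). Genes on the opposite strand overlap exons of Fzd5 (Gm38058) and Fzd6 (Gm26704).

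The 6 antagonists split. Sfrp1, the most abundant, read 36.6, 28.6 and 28.8 FPKM in WT CL against 17.5, 15.5 and 23.2 in WT UUO, and 32.6, 39.6 and 23.7 in Acot12-/- CL against 22.2, 16.9 and 21.5 in Acot12-/- UUO. All 6 UUO libraries lay below all 6 CL libraries, and the mean in UUO was 0.599 times that of CL in WT (fell by 0.72, SE 0.21, limma adjusted p = 0.0151) and 0.632 times in Acot12-/- (fell by 0.62, SE 0.21, adjusted p = 0.0270). Both calls depended on the scaling, since with library totals set equal the differences were -0.01 (adjusted p = 0.960) and -0.09 (adjusted p = 0.752). The WT call was lost without WT CL replicate 1 or WT UUO replicate 1 or 2 (adjusted p from 0.0523 to 0.0688), and the Acot12-/- call without Acot12-/- CL replicate 1 or 2 or Acot12-/- UUO replicate 2 (adjusted p from 0.0665 to 0.106) or in a fit of the 2 groups alone (adjusted p = 0.0757).

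Dkk3, a divergent member that tubular epithelium under stress is known to release, read 7.43, 6.25 and 6.50 FPKM in WT CL against 12.9, 10.2 and 14.3 in WT UUO, 1.85-fold higher (0.79, SE 0.17, limma adjusted p = 0.00309). For Acot12-/- it read 3.35, 5.24 and 4.26 in CL against 12.9, 15.5 and 16.8 in UUO, 3.51-fold higher (1.61, SE 0.17, adjusted p = 1.77e-05). As a share of the antagonist sum it went from 9.70% ± 1.57 (SD, n = 3) to 22.5% ± 1.15 in WT and from 8.27% ± 1.88 to 25.6% ± 2.66 in Acot12-/- kidneys. Sfrp5 was at or below 0.145 in every CL library and listed at 0 in 3 of the 6. It read 0.864, 0.764 and 0.401 in WT UUO and 0.703, 0.551 and 0.489 in Acot12-/- UUO (0.61, SE 0.12, adjusted p = 0.00116, and 0.64, SE 0.12, adjusted p = 0.000615). Since Sfrp5 reached the level in UUO libraries only, its direction was set by that level and is not tested by these p-values.

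Dkk2, Sfrp2 and Sfrp4 were called in neither genotype. Dkk2, an Lrp-binding antagonist that can also act as a weak agonist, read 31.9, 35.4 and 19.1 FPKM in WT CL against 23.7, 18.1 and 20.2 in WT UUO, and 9.40, 25.4 and 10.4 in Acot12-/- CL against 16.0, 19.5 and 28.9 in Acot12-/- UUO. The Acot12-/- CL mean rested on replicate 2, which lay far above the other libraries of its group. The UUO difference was -0.42 (SE 0.34, limma adjusted p = 0.339) in WT and 0.58 (SE 0.34, adjusted p = 0.179) in Acot12-/-, and without Acot12-/- CL replicate 2 the latter was 1.00 (adjusted p = 0.00810). With equal totals it was called as well (1.09, adjusted p = 0.00934). Sfrp2 ranged from 0.814 to 2.52 over all libraries, and without Acot12-/- CL replicate 1 it was called lower in Acot12-/- UUO (-0.54, adjusted p = 0.0457). Sfrp4 read 1.56, 2.33 and 0.699 in WT CL against 0.773, 0.557 and 0.788 in WT UUO (-0.52, SE 0.24, adjusted p = 0.0948), and without WT CL replicate 3 it was called lower (-0.78, adjusted p = 0.0163). Among genes below the level, Dkk1, a potent inhibitor at Lrp6, read 0.037 to 0.071 in WT CL against 0.178 to 0.240 in WT UUO and was not tested.

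Other genes of the pathway were tested by list. The lists were chosen by role and with earlier results of these data known, so their counts describe these genes and do not test the pathway. Of 11 beta-catenin target genes tested, 9 were higher and 2 lower in WT UUO, and 8 were higher and 2 lower in Acot12-/- UUO. That is 100% and 90.9% called, against 45.4% and 52.3% of all genes. Their median difference was 0.74 and 1.21 against 0.03 and 0.04 over all genes. Of 12 listed genes, 11 reached the level of 0.3 FPKM and were tested. Among these, Mmp7 reached it in UUO libraries only (at most 0.096 FPKM in CL), so its direction was set by that level. Tcf7, Lef1 and Axin2 reached it in fewer than 3 CL libraries (at most 0.333, 0.433 and 0.408 FPKM), so their direction was partly set. The shares and medians include these genes. Axin2, the negative feedback gene most specific to the canonical branch, went from a mean of 0.310 to 0.975 FPKM in WT (0.57, SE 0.15, limma adjusted p = 0.00936). The transcription factors Tcf7 (0.202 to 2.08 FPKM) and Lef1 (0.227 to 0.774 FPKM) were higher in WT, as were the feedback genes Nkd1 (1.15 to 2.60 FPKM) and Nkd2 (0.353 to 2.58 FPKM). Larger changes were in Cd44 (1.26 to 40.3 FPKM) and Myc (1.51 to 17.4 FPKM), which answer to many pathways and not to Wnt alone. Mmp7, a matrix metalloproteinase, was listed at 0 in all 3 WT CL libraries and had a mean of 14.5 FPKM in WT UUO. The 2 that went down were Ccnd1 (109 to 44.9 FPKM) and Sp5 (7.13 to 2.98 FPKM), the latter a feedback repressor close to the canonical branch.

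Of 7 co-receptors tested, 3 were higher in WT UUO and 2 in Acot12-/- UUO, with none lower (42.9% and 28.6% called, below the 45.4% and 52.3% of all genes). Ptk7, a pseudokinase of planar polarity, was higher in both (1.39 and 1.92 on the log2 scale, limma adjusted p = 3.96e-05 and 2.44e-06), as was Lrp5 (0.77 and 0.73, adjusted p = 0.0316 and 0.0346). Lrp6 was not called (-0.19 and -0.54). Of 15 intracellular transducers, 4 were higher in WT (Pygo2, Bcl9, Tcf7l1 and Dvl2) and 5 in Acot12-/- kidneys, with none lower (26.7% and 33.3% called, again below all genes). Beta-catenin itself (Ctnnb1) had means of 181 FPKM in WT CL and 190 in WT UUO and was not called. On the other side, Lgr4, a receptor for R-spondins, was the 1 called gene of 4 tested in its list and was lower in both (fell by 1.12 and by 1.34, adjusted p = 0.00298 and 0.000698). Wls, which carries Wnts to the cell surface, was lower in both (94.4 to 63.2 FPKM in WT, fell by 0.57, adjusted p = 0.0213). Genes of the pathway lists were not examined under the other scalings. Setting library totals equal moved the median of all genes by 0.53 in WT and 0.39 in Acot12-/- UUO comparisons. Whether the lower calls in these lists would remain with equal totals was not tested. Of 6 other secreted antagonists, Sostdc1 and Notum were lower in both genotypes (Sostdc1 69.4 to 27.2 FPKM and Notum 6.63 to 2.08 FPKM in WT), Apcdd1 was higher in WT and Wif1 lower in Acot12-/- kidneys. The CL and UUO libraries overlapped for Notum in Acot12-/- kidneys and for Apcdd1 in WT. Of 9 planar polarity genes, 4 were higher and 1 lower in each genotype. These are 50% and 55.6% called in each genotype, near the 45.4% and 52.3% of all genes.

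**Figure D4:**
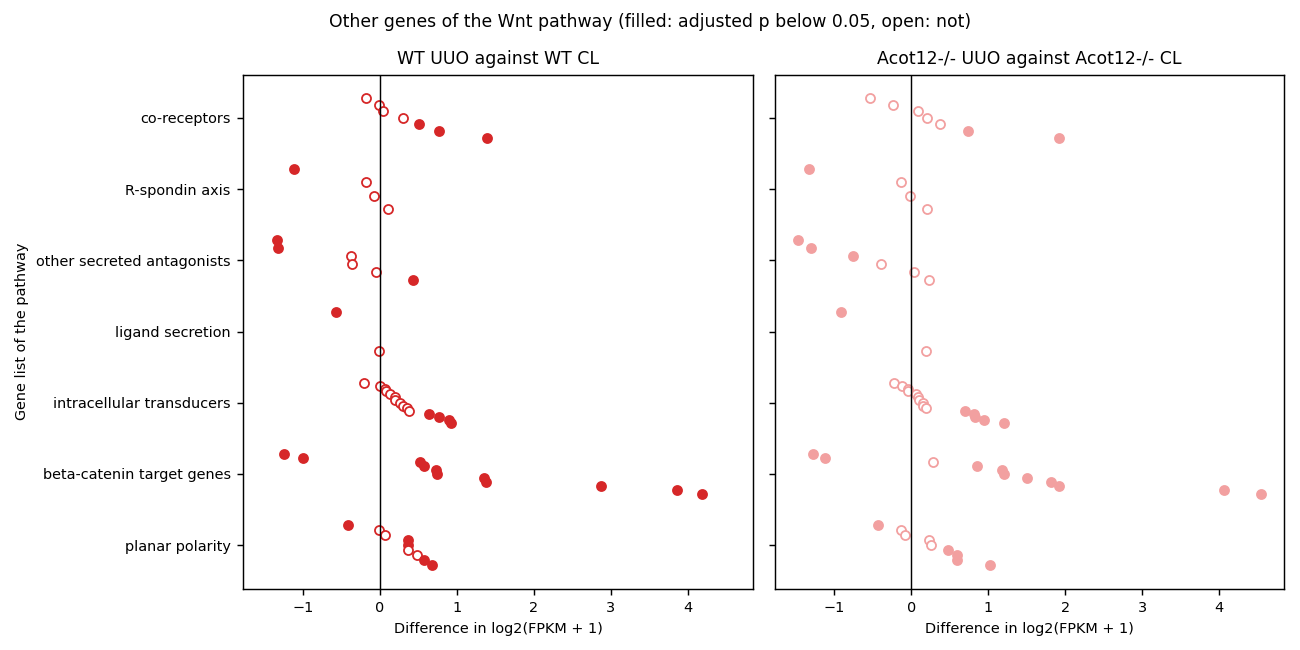
Difference in log2(FPKM + 1) between UUO and CL kidneys for the genes tested in 7 lists of the Wnt pathway, in WT (left) and Acot12-/- mice (right), with 1 point a gene and filled points where the adjusted p was under 0.05. Beta-catenin target genes spread farthest to the right, with 2 of 11 on the left in each panel, and co-receptors and transducers have filled points on the right only.

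Genotype was compared first in UUO kidneys. None of the 26 genes was called between Acot12-/- UUO and WT UUO (0% of all 14963 genes were called by limma, and 3.01% had an unadjusted p under 0.05, among them 1 of the 26, Wnt7a). Wnt7a had means of 0.944 FPKM in Acot12-/- UUO and 0.475 in WT UUO (0.39, SE 0.16, unadjusted p = 0.0281 from limma), and its libraries overlapped. The groups did not overlap for Fzd3 alone, with 0.751, 0.883 and 0.691 FPKM in Acot12-/- UUO below 0.991, 0.948 and 0.928 in WT UUO, where 12.0% of all genes did not overlap and 6.46% lay lower. Wnt4 differed by -0.05 (SE 0.29), Wnt10a by 0.16 (SE 0.16), Fzd2 by 0.05 (SE 0.15) and Dkk3 by 0.26 (SE 0.17). No gene of the 7 pathway lists was called.

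In CL kidneys, 1 of the 26 genes was called, Fzd1, where 4.06% of all genes were called (0.976% higher and 3.08% lower). It was higher in Acot12-/- CL, at 20.5 ± 3.59 FPKM (SD, n = 3) against 11.8 ± 1.85 in WT CL, 1.74-fold (0.75, SE 0.17, limma adjusted p = 0.0316). The libraries did not overlap. The call was lost without WT CL replicate 1 or 2, WT UUO replicate 1 or 2 or Acot12-/- CL replicate 1 (0.64 to 0.75, adjusted p from 0.0529 to 0.128), with equal totals and in a fit of the 2 groups alone (adjusted p from 0.118 to 0.184). In total 9 of the 26 genes had an unadjusted p under 0.05, against 17.0% of all genes, and 7 of 26 did not overlap, against 18.6%. Of these, Fzd1 and Fzd7 lay higher in Acot12-/- CL (2 of 26, against 7.99% of all genes), and Wnt7b, Wnt2, Fzd2, Dkk3 and Sfrp4 lay lower (5 of 26, against 10.7%).

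Those lower genes had values as follows. Wnt7b had means of 1.37 FPKM in Acot12-/- CL against 2.84 in WT CL (-0.68, SE 0.21, limma adjusted p = 0.109). Wnt2 had means of 0.0780 and 0.314 (-0.28, SE 0.11, adjusted p = 0.220). Dkk3 had means of 4.29 and 6.72 (-0.56, SE 0.17, adjusted p = 0.104). Fzd2 had means of 0.781 and 1.32 (-0.40, SE 0.15, adjusted p = 0.183). Sfrp4, an antagonist found in fibroblasts of many tissues, was listed at 0 and at 0.627 and 0.484 FPKM in Acot12-/- CL (-0.86, SE 0.24, adjusted p = 0.0683). Without Acot12-/- CL replicate 2, 5 of 26 genes were called instead of 1, where 19.3% of all genes were called instead of 4.06%, with Fzd1 and Wnt5b higher (Wnt5b 0.58, adjusted p = 0.0371) and Dkk2 (-1.41, adjusted p = 0.00820), Dkk3 (-0.69, adjusted p = 0.0169) and Sfrp4 lower (adjusted p = 0.0257). Sfrp4 was also called without WT CL replicate 3 (-1.12, adjusted p = 0.0324). Marker sums of several cell types did not overlap between the CL groups either, and 5 of 6 endothelial, 3 of 9 fibroblast and 2 of 6 macrophage markers were called lower in Acot12-/- CL. Fibroblast markers summed to 160 to 195 FPKM in WT CL against 52.7 to 103 in Acot12-/- CL, endothelial markers (6 genes) to 125 to 200 and 41.4 to 65.0, and macrophage markers (6 genes) to 105 to 117 and 39.9 to 84.2, while the sums of proximal tubule markers did not overlap in the other direction, although 0 of 8 were called. The part of these cell types in the CL differences was not tested. In the pathway lists, 2 beta-catenin target genes (Nkd1, -0.61, adjusted p = 0.0465, and Snai1, -0.79, adjusted p = 0.0119) and 1 planar polarity gene (Daam2, -0.88, adjusted p = 0.0177) were lower in Acot12-/- CL. That is 18.2% and 11.1% of the 2 lists, against 4.06% of all genes called.

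**Figure D5:**
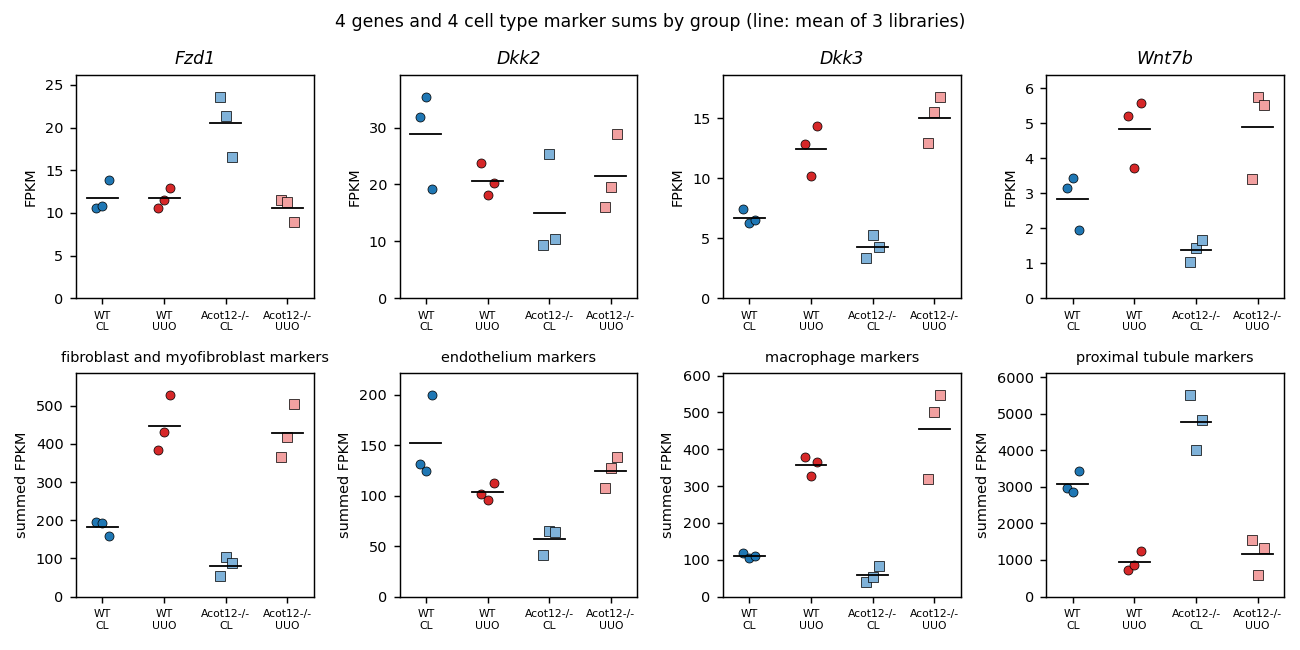
FPKM of Fzd1, Dkk2, Dkk3 and Wnt7b (top) and summed FPKM of 4 cell type marker lists (bottom) in each library of the 4 groups, with a line at the mean of 3. The Acot12-/- CL libraries lie above WT CL for Fzd1 and proximal tubule markers and below it for Dkk3, Wnt7b and the fibroblast, endothelium and macrophage markers. For Dkk2, 1 Acot12-/- CL library lies far above the other 2.

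Whether UUO moved a gene differently in the genotypes was tested as an interaction. None of the 26 genes was called by limma (0.0535% of all genes were, and 10.5% had an unadjusted p under 0.05, among them 3 of the 26). The 3 were Fzd1 (-0.89, SE 0.24, adjusted p = 0.154), Dkk3 (0.82, SE 0.25, adjusted p = 0.200) and Wnt7b (0.69, SE 0.30, adjusted p = 0.462). For all 3 the CL libraries of the genotypes did not overlap while the UUO libraries did, where Fzd1 had means of 10.5 FPKM in Acot12-/- and 11.7 in WT, Dkk3 of 15.1 and 12.5 and Wnt7b of 4.89 and 4.83. Without Acot12-/- CL replicate 2, 2 of 26 genes were called, where 5.53% of all genes were, namely Dkk2 (1.43, adjusted p = 0.0486) and Dkk3 (0.95, adjusted p = 0.0365).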

How the data were processed

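RNA was taken from kidney cortex of 12 mouse kidneys and libraries were made with a directional kit (NEBNext Ultra II). Reads were mapped and normalized by a service provider. The submitters' processing notes name mm10 and edgeR, and the aligner, annotation and strand setting are not given in the sources used here. The deposited files, 1 per library, hold 1 value per gene symbol. The unit is not named in them, and the values behave as FPKM as deposited by the authors: low values rise in steps set by transcript length. Counts are not given, so the depth was estimated from these steps over genes with a single transcript in GENCODE vM21, whose lengths may differ from those the provider used.

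Differences were tested with limma 3.58.1 (R 4.3.3) on log2(FPKM + 1), in 1 model of 4 group means over 12 libraries with a variance trend, and p-values were adjusted by the Benjamini-Hochberg method over 14963 genes with at least 0.3 FPKM in at least 3 libraries. A log2 difference on this scale understates the change of low genes. A further 29 genes, listed at 0 in a library beside at least 10 FPKM in another of its group, were left out, since such a 0 may be a failed estimate. All tests are two-sided. The script was tested on simulated data. Every symbol of the Wnt, Fzd, Sfrp and Dkk families at the level could be named, and other genes come from fixed pathway and marker lists, of which 1 gene is not reported here. The genes, lists and level were chosen with earlier results of these data known. Replicate numbers come from the sample titles. Same-numbered CL and UUO kidneys deviated together (correlation of deviations from group means 0.13, 0.34 and 0.32 in WT and 0.31, 0.18 and 0.31 in Acot12-/-), so they were taken as pairs, and a fit with the pair as a block was run as an alternative. Gene positions are from GENCODE vM21 (GRCm38) and promoters from RefSeq. The alternatives were another pseudocount, other filters, 2 other scalings, no variance trend, leaving out each library and fitting 2 groups alone.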

Additional observations from a re-analysis of the deposited data

How the results depend on the processing

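The WT comparison of UUO with CL called 12 genes, and 7 were called without WT UUO replicate 1, the fewest on leaving out any library. Between Acot12-/- CL and WT CL 1 gene was called. With library totals set equal, or with only the 2 groups compared, 0 were called, and leaving out 1 library gave 0 to 5 (5 without Acot12-/- CL replicate 2, 2 without WT CL replicate 3). For the interaction 0 were called, and leaving out 1 library gave 0 to 2. The replicate block left all 12 and 14 UUO calls of the genotypes as they were and changed no other call. Scaling to equal totals moved the median of all genes by 0.53 in WT and 0.39 in Acot12-/- UUO comparisons, so that 16 genes were called higher and 0 lower in WT and 14 higher and 0 lower in Acot12-/-, and Fzd1 in WT went from 0.00 to 0.68 (adjusted p = 0.0174). This scaling lost 6 calls of single genes and gained 9, and the cause was not tested. Median-ratio size factors changed none. Over 2664 single-gene values under the alternatives, 2588 stayed on the same side of the threshold, and those called also kept their direction. A gene not called could change direction and still be counted among them, as Fzd4 and Wnt5b did in WT with equal totals. Depth limits the genes near 0 in CL kidneys, since at 0.0683 to 0.0886 FPKM for 1 fragment on 1 kb they rest on a few fragments.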

Other observations

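Several Wnt genes lie close together in the genome, and neighbours differed in level. Wnt10a, which reached 2.76 FPKM in UUO kidneys, lies 6.2 kb from Wnt6 on the same strand of chromosome 1, and Wnt6 stayed at or under 0.225 FPKM in every library. Wnt9a lies 16.2 kb from Wnt3a on chromosome 11, and Wnt3a was listed at 0 in all 12 libraries. Wnt9b lies 24.3 kb from Wnt3 on the same chromosome, and Wnt3 was listed at 0 in 10 libraries and read at most 0.026 FPKM in the others. In the pair Wnt10b and Wnt1 on chromosome 15, 11.7 kb apart, neither reached the level, at no more than 0.165 and 0.021 FPKM. No test was made on these pairs.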
